A study of Xenopus laevis with 36 samples.

Results

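Skin wounds given recombinant *X. laevis* interleukin-34 (rIL34) and taken at 7 days post wounding (dpw) were compared, across all genes, with wounds given a recombinant control preparation (rctrl). The comparison holds 12 of the 36 RNA-seq libraries of the study, 6 of rIL34 and 6 of rctrl, and they were taken by their labels alone. All frogs were juvenile, outbred *X. laevis* of WT genotype, and each wound was a 2 mm biopsy punch through the epidermis and dermis of dorsal skin that left the muscle beneath in place. The rIL34 group was injected subcutaneously beside the wound at 3 dpw with 1 µg of the cytokine, made in Sf9 insect cells, in 20 µL. The rctrl group received an equal volume of the same preparation from Sf9 cells carrying the empty vector, so both groups were wounded, injected and exposed to insect cell products. The remaining libraries are 6 of recombinant CSF1 (rCSF1) at 7 dpw and 6 of each treatment at 14 dpw. The labels number the libraries of a group and do not say that each came from a separate frog, so the p-values below measure the spread between libraries. For single genes that spread was estimated in 1 model of all 36 libraries.

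IL34 and CSF1 are the ligands of the CSF1 receptor, on which monocytes and macrophages depend for survival and differentiation. In mammals IL34 is made by keratinocytes and neurons and maintains Langerhans cells and microglia, and it also binds the chondroitin sulfate chains of syndecan-1 and the phosphatase PTPRZ1. Skin wounds in juvenile frogs close within days, and the new epidermis is then built up while the dermis and its glands are replaced below it. The question of the comparison was what a dose of IL34, and with it the macrophages that IL34 supports, does to the wound early in that process.

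Of 28225 genes tested, 4471 were higher (15.8%) and 3159 lower (11.2%) in rIL34 than in rctrl wounds at an adjusted p under 0.05. The median log2 fold change was 0.75 among the higher and -0.75 among the lower genes, and -0.01 over all genes tested. A change of at least 1 on the log2 scale was seen for 1256 higher and 751 lower genes. Every rIL34 library lay above every rctrl library for 1938 genes (6.87%) and below every rctrl library for 1101 genes (3.90%). The calls were repeated in 22 refits with other settings or with 1 library left out. Of the 7630 called genes, 4065 kept the call in every refit that gave them an adjusted p. These genes, 2517 higher and 1548 lower, are called stable below, and any other called gene lost its call in at least 1 refit. *X. laevis* is allotetraploid, and the 2 copies of a gene are marked L and S. Both copies were tested for 6631 genes. Both passed in 1154 of these pairs, 836 with both copies higher, 304 with both lower and 14 with opposite directions, and a single copy passed in 1743 pairs. The copies can share reads, so 2 copies that move together are not separate evidence.

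Library totals were 28594920 to 34868292 read pairs in rIL34 and 24605315 to 29280860 in rctrl wounds. On a principal component analysis of the 12 libraries the groups separated on the first component (26.6% of the variance), and rIL34 replicates 1 and 5 lay at the ends of the second (15.2%). Correlations of log2 expression were 0.91 to 0.96 among rIL34 libraries, 0.95 to 0.96 among rctrl libraries and 0.90 to 0.95 between the groups. The tissue label was checked on short marker panels. Summed epidermal markers stood at 1589, 1861 and 2816 CPM (read counts scaled to library size; lowest, median and highest of 6 libraries) in rIL34 wounds, against 704, 895 and 1292 CPM in rctrl wounds, and 7 of the 8 rows of that panel were higher. Dermal fibroblast markers were abundant in both groups (9775 to 24080 CPM in rIL34 and 7415 to 11736 CPM in rctrl wounds), with 2 of 12 rows higher. A panel of 5 skeletal muscle genes summed to 6.17 to 68.8 CPM in rIL34 and 5.08 to 35.0 CPM in rctrl wounds, and none of its 7 rows passed. A longer muscle list, given below, summed to more and was uneven between libraries. Ribosomal RNA rows took 2.61% ± 0.53 of all counts in rIL34 and 1.42% ± 0.17 in rctrl libraries (SD, n = 6 each, exact two-sided permutation p = 0.0022, the smallest that 6 against 6 can give), with no overlap between the groups. In whole wounds, fewer cells of a type and less RNA per cell cannot be told apart, and this holds for every result below. Epidermal markers and the ribosomal RNA share moved with the groups, and their part in the other differences was not tested.

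**Figure D1:**
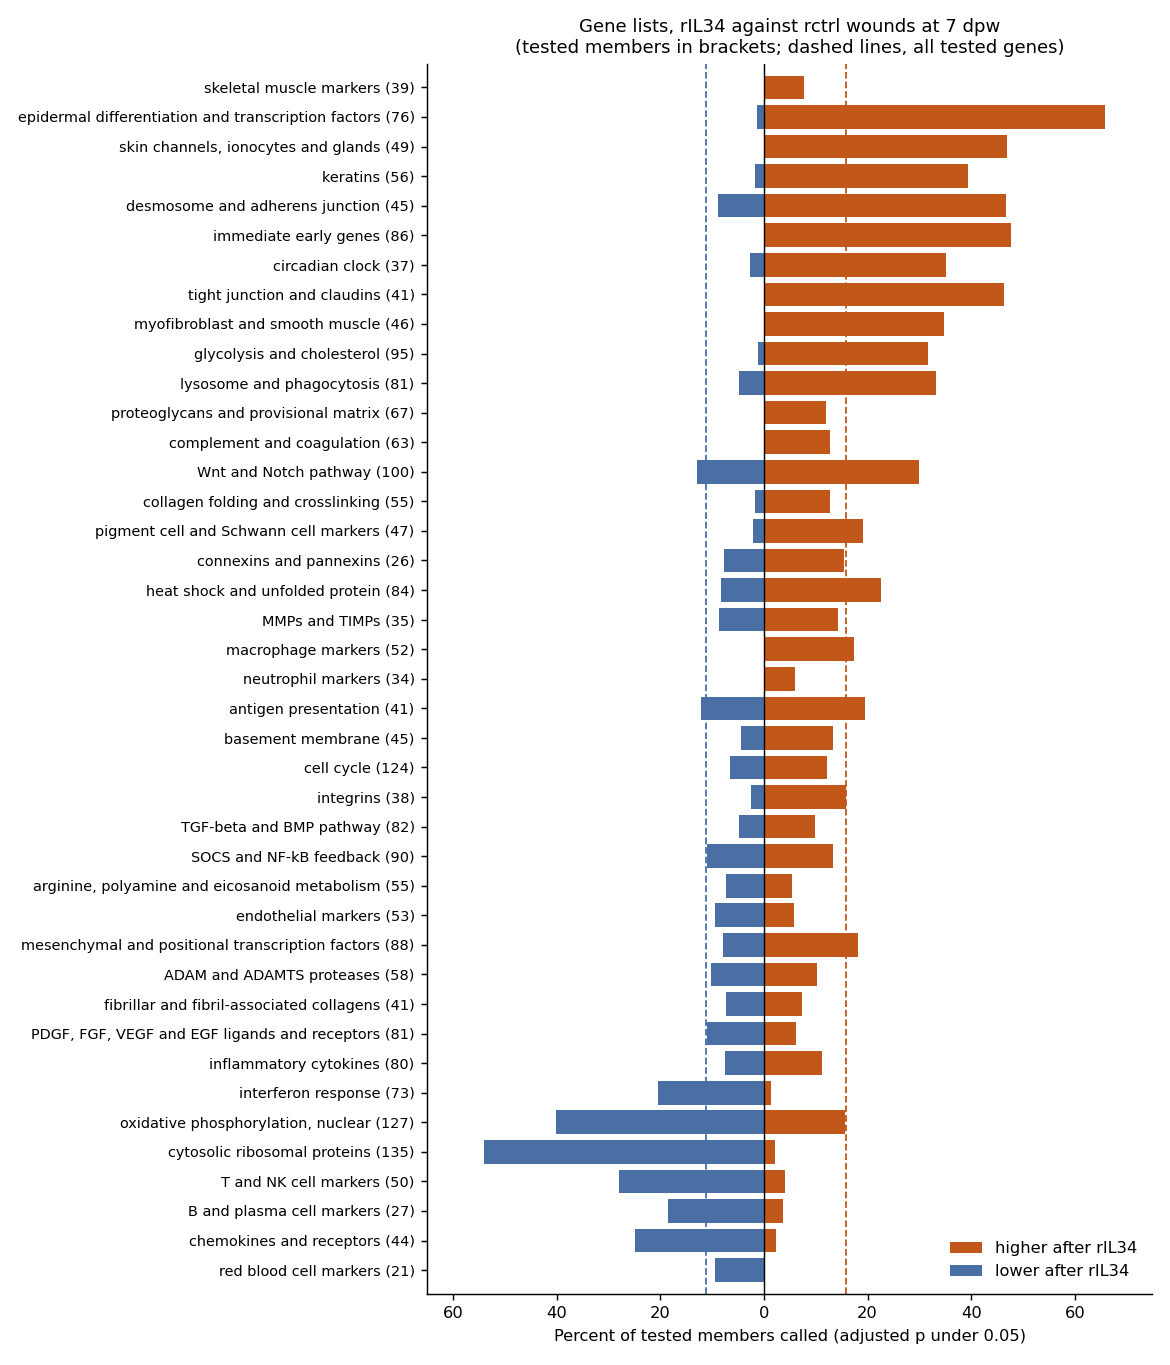
Percent of the tested members of each gene list (rows, ordered by median log2 fold change, number tested in brackets) that were called higher (orange, to the right) or lower (blue, to the left) in rIL34 than in rctrl wounds at 7 dpw, with dashed lines at 15.8% and 11.2% of all genes tested. Epidermal differentiation had 65.8% of its members higher, immediate early genes 47.7% and channels, ionocytes and glands 46.9%, and cytosolic ribosomal proteins had 54.1% lower and T and NK cell markers 28.0%.

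The largest stable rises, among genes that averaged 1 CPM or more, were led by the connexin gene *gjb3l.S* (2.87, adjusted p = 4.35e-05) and by both copies of the early response genes, *fos.S* (2.75), *fos.L* (2.55), *egr1.S* (2.64) and *egr1.L* (2.49). They also held the keratins *krt61.L* (2.40) and *krt12.6.S* (2.21), the epidermal serine protease *PRSS8* (2.27), the tricellular junction gene *ildr1.S* (2.27), the homeobox gene *dlx2.L* (2.55), the procollagen C-proteinase enhancer *pcolce.L* (2.46), the extracellular chaperone clusterin *clu.L* (2.36) and the clock repressor *nr1d1.L* (2.30). The others of the 15 were *srpk2l.L* (2.45) and *vwa5a.2.L* (2.36). The 15 largest stable falls included both copies of the T cell receptor alpha constant gene, *trac.L* (-2.04) and its S copy *trac.S*, the T cell inhibitory receptor *ctla4.L* (-2.07), the cytotoxic lymphocyte receptor *crtam.L* (-1.86), the chemokines *cxcl13.S* (-2.64) and *cxcl9.S* (-2.28), and *s1pr4.L* (-2.71), a sphingosine 1-phosphate receptor of lymphocytes, with its S copy *s1pr4.S* (-2.08). The others were 3 receptor-transporting protein genes, *rtp3d.S* (-2.24), *rtp3a.2.L* (-2.17) and *rtp3e.3.L* (-2.16), the serotonin receptor *htr2a.S* (-2.24), and *podxl2.S* (-2.31), *igdcc3.S* (-2.03) and *anxa10.S* (-1.97). Among these falls the groups were separate for *trac.L* and *anxa10.S* and overlapped for all others. Among the rises they overlapped for *pcolce.L*, *krt61.L* and *clu.L* only. Some falls had few counts, with rIL34 means of 0.41 CPM in *podxl2.S*, 0.40 in *htr2a.S*, 0.44 in *igdcc3.S* and 0.76 in *s1pr4.L*. The smallest p-values fell on genes of moderate change and little spread. They included *laptm4a.L* (1.63, adjusted p = 6.47e-09), a lysosomal membrane protein, *atp6v0c.L* (1.48, adjusted p = 1.37e-07), the proteolipid of the vacuolar proton pump, *gsn.L* (1.24, adjusted p = 1.37e-07), the actin-severing protein gelsolin, *ppl.S* (1.70, adjusted p = 1.74e-07), the cornified envelope protein periplakin, and *agpat2.S* (2.06, adjusted p = 1.74e-07), an enzyme of phospholipid synthesis.

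**Figure D2:**
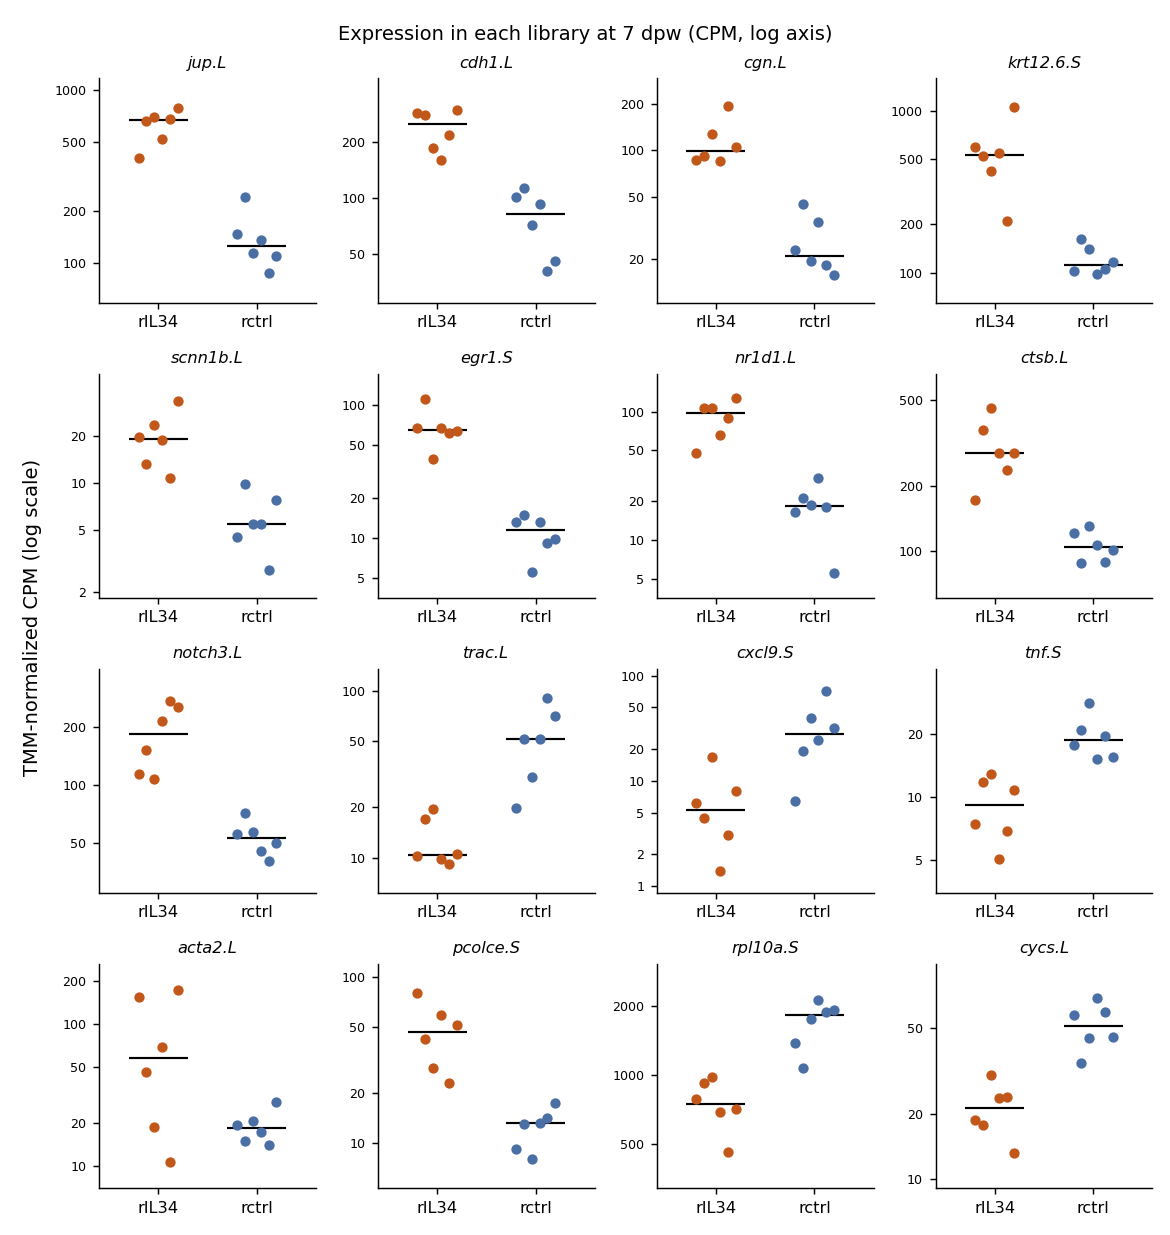
Expression of selected genes in each library (vertical axes, TMM-normalized CPM on a log scale), with 6 rIL34 wounds to the left of 6 rctrl wounds at 7 dpw in each panel, 1 point per library and a line at the group median. The groups do not overlap for *jup.L* (406, 668 and 781 CPM as lowest, median and highest in rIL34, 88.1, 125 and 242 CPM in rctrl) or *trac.L*, and they overlap for *acta2.L*.

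Few genes of the IL34 and CSF1 axis itself were called. Neither copy of the *il34* gene passed, with *il34.L* at -0.05 (adjusted p = 0.919) and *il34.S* at -0.44 (adjusted p = 0.277). The receptor gene *CSF1R* did not pass either, at 0.27 (adjusted p = 0.547), with 117, 260.0 and 433 CPM in rIL34 wounds, against 184, 219 and 261 CPM in rctrl wounds (lowest, median and highest of 6 libraries, here and below). The second ligand gene *csf1.S* (chromosome 2S, 61440375 to 61452789 of Xenopus_laevis_v10.1) stood at 17.8, 20.1 and 22.7 CPM in rIL34 wounds, against 23.6, 27.5 and 33.5 CPM in rctrl wounds, and every rIL34 library was below every rctrl library (log2 fold change -0.50, SE 0.16, adjusted p = 0.0196). *sdc1.L* (chromosome 5L, 154550393 to 154597366), which encodes syndecan-1, went the other way, with 122, 174 and 343 CPM in rIL34 wounds, against 44.7, 56.8 and 83.4 CPM in rctrl wounds and no overlap (log2 fold change 1.67, SE 0.37, adjusted p = 0.00105). Of the 16 tested rows of this list, these were the 2 that passed, 1 in each direction, and the list median was -0.34.

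Of 52 tested rows of macrophage markers, 9 were higher (17.3%, against 15.8% of all genes) and 0 lower (against 11.2% of all genes), and their median was 0.11. The 4 stable ones were 3 cathepsin rows, *ctsd.S* (1.37), *ctsb.L* (1.49) and *ctsb.S* (1.36), and the macrophage transcription factor gene *mafb.S* (0.73). Cathepsins are lysosomal proteases, which are not specific to macrophages. Without rctrl replicates 4, 5 or 6 the higher rows were 5, 5 and 4, and 1 row was lower without rctrl replicate 4. *ctsb.L*, the cysteine protease cathepsin B (chromosome 5L, 162123411 to 162134636), had 172, 283 and 456 CPM in rIL34 wounds, against 88.1, 104 and 131 CPM in rctrl wounds, with no overlap (log2 fold change 1.49, SE 0.25, adjusted p = 5.31e-05). The summed markers of the panel of macrophages ranged from 484 to 917 CPM in rIL34 and from 421 to 626 CPM in rctrl wounds, and 1 of its 5 rows was higher. Among neutrophil markers 2 of 34 rows were higher and 0 lower, and both were copies of a transcription factor gene that many other cells use (*cebpb.S* 1.63 and *cebpb.L* 1.51). The granule gene myeloperoxidase did not pass (*mpo.L* 0.77 and *mpo.S* 0.69).

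Lysosomal genes were higher. Of 81 rows for degradation and uptake, 27 were higher and 4 lower, with a median of 0.32, and 24 of the higher rows were stable. They covered the proteases *ctsa.L* (1.19), *ctsc.S* (1.07) and *ctsz.L* (1.09), the glycosidases and lipid hydrolase *naglu.L* (1.11), *gba.L* (1.18) and *lipa.L* (0.86), the lysosomal regulator progranulin *grn.L* (1.43), the membrane protein *lamp1.S* (0.76) and *tfe3.S* (1.23), a transcription factor of lysosome biogenesis. The 4 lower rows were *scarb2.L* (-0.83), the lysosomal receptor that carries glucocerebrosidase, the scavenger receptor *cd36.S* (-0.81), the proton pump subunit *atp6v1h.L* (-0.32) and *dock1.S* (-0.59). The call of *atp6v1h.L* was kept in 11 of 22 refits, and *cd36.S* lost its call without rctrl replicate 4. Skin cells of every kind express these genes, and the cell type of origin is not given by the counts.

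Epidermal genes were higher. Of 76 tested rows for keratinocyte differentiation, 50 were higher, 1 was lower and the median log2 fold change was 0.91. Stable among them were 36. They included the envelope proteins envoplakin *evpl.L* (2.21) and periplakin *ppl.L* (1.58), the regulators *dlx3.L* (1.71), *dlx5.L* (2.04), *klf5.S* (1.79), *grhl1.L* (1.34) and *sox21.L* (1.76), and the epithelial splicing factor *esrp1.L* (1.18). Both copies of the basal keratinocyte factor, *tp63.L* (0.70) and *tp63.S* (0.95), passed, the L copy losing its call without rIL34 replicate 6 or rctrl replicates 3 or 5 and both in the fit of the 18 libraries of 7 dpw. The single lower row was *hopx.L* (-1.27, adjusted p = 0.0047), an atypical homeobox gene. With L and S copies summed 26 of the list's genes were higher, fewer because 2 rows become 1. E-cadherin, *cdh1.L* (chromosome 4L, 55294103 to 55337191), which joins epithelial cells to each other, had 161, 249.7 and 299 CPM in rIL34 wounds, against 40.2, 82.4 and 114 CPM in rctrl wounds. No rIL34 library reached down to the highest rctrl library (log2 fold change 1.62, SE 0.31, adjusted p = 0.000217).

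Keratins and junctions followed the same direction. Of 56 keratin rows 22 were higher and 1, *krt60.L* (-0.82, adjusted p = 0.011), was lower, with a median of 0.64. The higher count was 14 in the fit of 18 libraries and 13 with copies summed, and *krt60.L* lost its call without rctrl replicate 2. The keratin *krt12.6.S* (chromosome 9_10S, 1185669 to 1190695) stood at 209, 533 and 1052 CPM in rIL34 wounds, against 97.9, 111 and 161 CPM in rctrl wounds, again with separate groups (log2 fold change 2.21, SE 0.40, adjusted p = 0.000133). Desmosome and adherens junction rows were higher in 21 and lower in 4 of 45, with 12 and 3 when copies were summed. Plakoglobin, *jup.L* (chromosome 9_10L, 954850 to 988459), which links desmosomal and classical cadherins to the cytoskeleton, had 406, 668 and 781 CPM in rIL34 wounds, against 88.1, 125 and 242 CPM in rctrl wounds. The lowest rIL34 wound was above the highest rctrl wound (log2 fold change 2.15, SE 0.27, adjusted p = 1.89e-06), and the S copy had 2.02 (adjusted p = 2.74e-07). The plakophilins *pkp3.L* (1.82) and *pkp1.L* (1.41), desmocollin *dsc3.L* (1.64) and P-cadherin *cdh3.L* (1.17) were higher too. The 4 lower rows were T-cadherin *cdh13.L* (-1.05, adjusted p = 0.00442), the neural alpha-catenin *ctnna2.L* (-0.97, adjusted p = 0.00759), *nectin3.S* (-0.85, adjusted p = 0.0243) and N-cadherin *cdh2.S* (-0.54, adjusted p = 0.0412). Of these *cdh13.L* was stable, *ctnna2.L* lost its call without rctrl replicate 6, *nectin3.S* without rIL34 replicate 6 or rctrl replicate 1, and *cdh2.S* kept it in 10 of 22 refits.

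Tight junction genes were higher in 19 and lower in 0 of 41 rows (median 0.56), and 11 were higher in the fit of 18 libraries. Cingulin, *cgn.L* (chromosome 8L, 133673346 to 133704870), a plaque protein of the tight junction, was at 85.3, 98.8 and 193 CPM in rIL34 wounds, against 15.7, 20.9 and 45.0 CPM in rctrl wounds. Its groups did not overlap (log2 fold change 2.15, SE 0.32, adjusted p = 1.14e-05). Junctional adhesion molecule A *f11r.S* (1.94), the claudins *cldn7.S* (1.93) and *cldn4.S* (1.55) and occludin *ocln.S* (1.40) were also stable. Among gap junction rows *gjb3l.S* (chromosome 9_10S, 113714875 to 113718248) had 3.62, 7.27 and 15.9 CPM in rIL34 wounds, against 0.65, 1.15 and 1.65 CPM in rctrl wounds, and its groups were separate (log2 fold change 2.87, SE 0.47, adjusted p = 4.35e-05). The widely expressed connexin 43 gene *gja1.L* (-1.05, adjusted p = 0.000955) was lower. The 26 connexin and pannexin rows had 4 higher (15.4%, against 15.8% of all genes) and 2 lower (7.7%, against 11.2%).

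Genes of ion and water transport were higher. Frog skin takes up sodium through epithelial sodium channels and acidifies its surface through proton-pumping ionocytes. Of 49 tested rows for channels, ionocytes and glands, 23 were higher and 0 lower (median 0.75, 12 higher with copies summed). The channel subunit *scnn1b.L* (chromosome 9_10L, 114250918 to 114296248) had 10.7, 19.2 and 33.1 CPM in rIL34 wounds, against 2.76, 5.43 and 9.82 CPM in rctrl wounds (log2 fold change 1.73, SE 0.30, adjusted p = 9.1e-05). The alpha subunit *scnn1a.S* (1.70) and the gamma subunit *scnn1g.L* (1.30) were stable as well. The ionocyte subunit of the proton pump, *atp6v1b1.L* (chromosome 1L, 12189460 to 12228096), had 26.4, 36.6 and 62.6 CPM in rIL34 wounds, against 7.87, 11.7 and 15.02 CPM in rctrl wounds (log2 fold change 1.74, SE 0.30, adjusted p = 8.08e-05). In *scnn1b.L* and *atp6v1b1.L* the rIL34 libraries all lay above the rctrl libraries. The ionocyte transcription factor was higher for both copies, *foxi1.S* (1.34) and *foxi1.L* (1.18), as was aquaporin *aqp3.S* (1.36). Skin gland markers overlapped between the groups, at 114, 688 and 1684 CPM summed in rIL34 and 178, 658 and 1004 CPM in rctrl wounds, and 1 of 5 rows passed. Pigment cell markers rose in 3 of 5 rows, with the melanosome protein *pmel.L* (1.42, adjusted p = 0.00286) as an example.

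**Figure D3:**
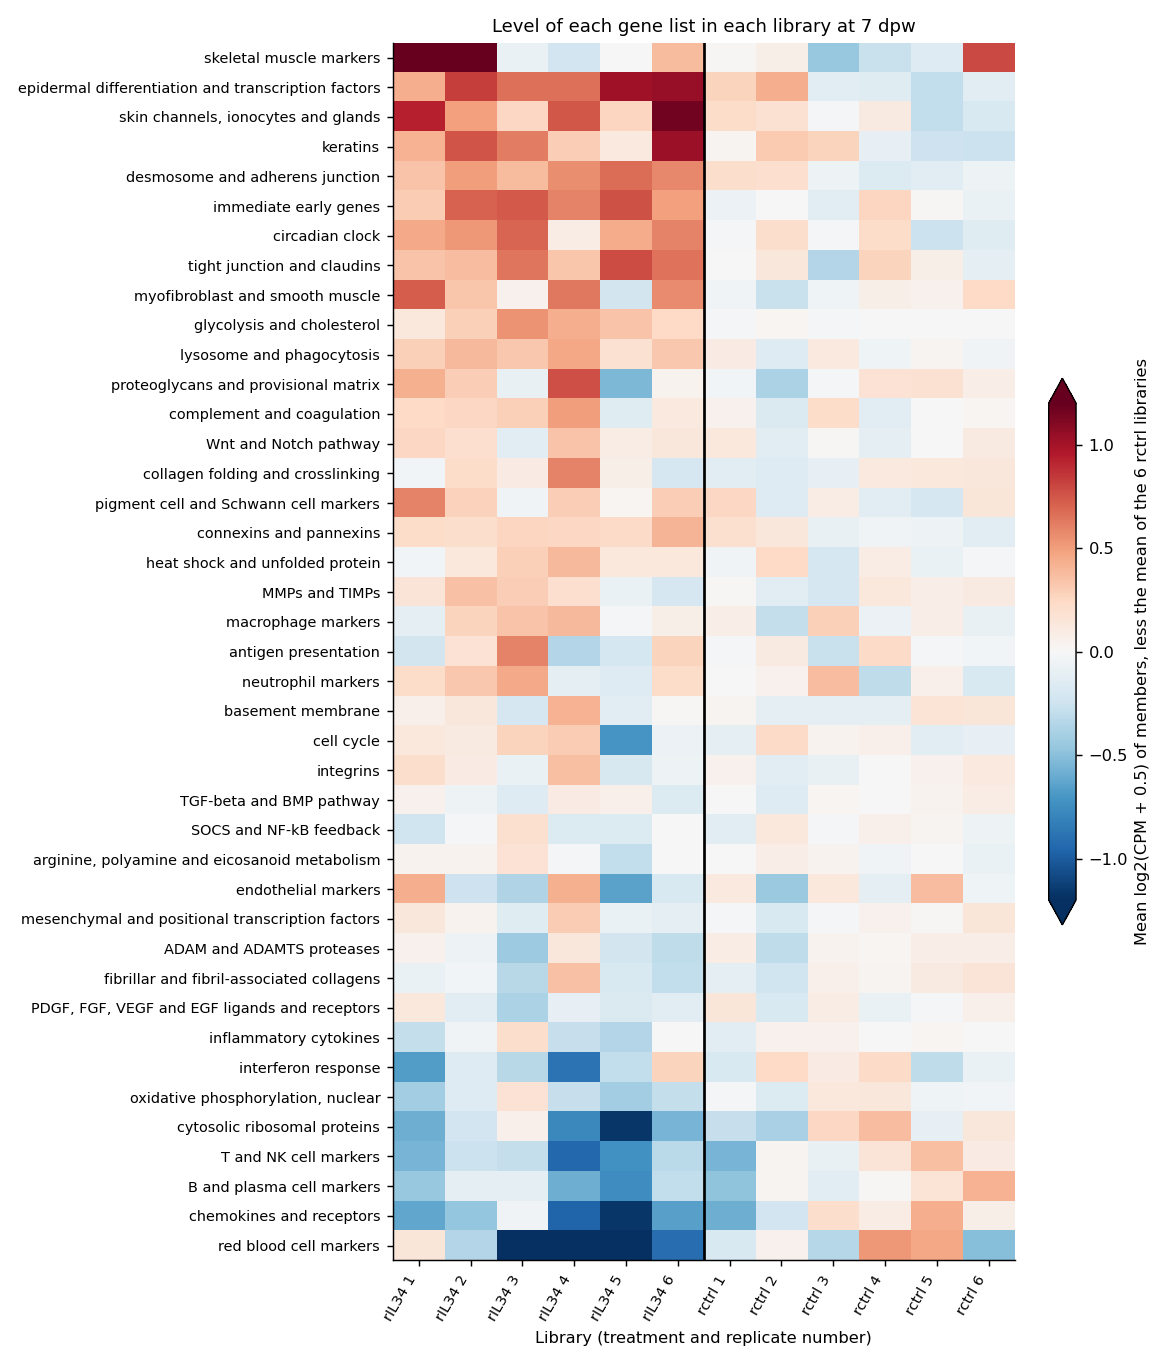
Mean log2(CPM + 0.5) of the members of each gene list (rows, 20 or more tested members) in each library (columns, 6 rIL34 wounds left of 6 rctrl wounds at 7 dpw), shown as colour after subtracting the mean of the 6 rctrl libraries. Epidermal, junction and channel lists are above the rctrl mean in all 6 rIL34 wounds, T cell and chemokine lists are below it in all 6, the ribosomal protein list is below it in 5 of 6, and red blood cell and muscle lists vary widely between libraries of 1 group. Some rctrl wounds lie inside the rIL34 range. These are replicate 1 for T cells (-0.56) and replicates 1 and 2 for chemokines (-0.58 and -0.23). Ribosomal proteins have replicates 1, 2 and 5 there (-0.27, -0.39 and -0.10). Epidermal differentiation has replicate 2 (0.44), and keratins have replicates 2 and 3 (0.31 and 0.26). In the interferon response list rIL34 replicate 6 (0.27) lies above every rctrl wound.

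Immediate early genes, transcription factors and phosphatases that cells switch on within minutes of a stimulus, were higher in 41 and lower in 0 of 86 rows, and 26 of these were stable (20 higher with copies summed). *egr1.S* (chromosome 3S, 98821026 to 98824316) had 39.4, 65.6 and 112 CPM in rIL34 wounds, against 5.49, 11.5 and 14.98 CPM in rctrl wounds (log2 fold change 2.64, SE 0.30, adjusted p = 3.11e-07). *fos.S* (chromosome 8S, 25750566 to 25753402), a subunit of the AP-1 transcription factor, ranged from 6.93 to 24.3 CPM in rIL34 wounds, against 1.31 to 2.87 CPM in rctrl wounds (log2 fold change 2.75, SE 0.54, adjusted p = 0.000336). For both genes every rIL34 wound was higher than every rctrl wound, and the rIL34 wounds differed widely among themselves in *fos.S*. Both copies of the AP-1 subunits rose (*jun.L* 1.04 and *jun.S* 1.46, *junb.L* 1.44 and *junb.S* 1.32), as did those of the nuclear receptor *nr4a1.L* (1.76) and *nr4a1.S* (1.72), of *ier2.L* (1.54) and *ier2.S* (1.35), and of the mRNA decay factor *zfp36.L* (1.05) and *zfp36.S* (1.47).

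Clock genes were higher in 13 and lower in 1 of 37 rows, and in 8 and 2 without rctrl replicate 5. The repressor *nr1d1.L* (chromosome 9_10L, 1846824 to 1854020), which closes one arm of the clock's feedback loop, had 47.4, 98.0 and 127 CPM in rIL34 wounds, against 5.54, 18.4 and 30.6 CPM in rctrl wounds (log2 fold change 2.30, SE 0.37, adjusted p = 2.97e-05). Its groups did not overlap, and rctrl replicate 6 stood well below the other rctrl wounds. The output factor *dbp.L* (1.21, adjusted p = 0.000127) and the repressor *cry2.L* (1.49, adjusted p = 0.000259) were stable and higher. The lower row was the period gene *per3.L* (-2.48, adjusted p = 0.00258), a call kept in 21 of 22 refits and lost with limma-voom (adjusted p = 0.0548).

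The Wnt and Notch pathways, both of which pass signals between neighbouring cells, were read as 1 list. Of its 100 rows, 30 were higher and 13 lower, with 21 and 7 in the fit of 18 libraries and 18 and 8 with copies summed. The receptor *notch3.L* (chromosome 3L, 142002526 to 142054104) had 108, 185 and 275 CPM in rIL34 wounds, against 40.7, 53.3 and 72.0 CPM in rctrl wounds and separate groups (log2 fold change 1.80, SE 0.26, adjusted p = 8.97e-06). The receptor copies *notch1.L* (1.08) and *notch1.S* (0.86) rose, and so did the Notch target genes *hes1.L* (1.64), *hes1.S* (1.51), *hes4.L* (1.73), *hes4.S* (1.00), *hey1.S* (1.26) and *nrarp.S* (1.27). The Wnt ligand *wnt9a.S* (chromosome 6S, 4980557 to 5062758) went down, at 7.72, 16.7 and 20.8 CPM in rIL34 wounds, against 29.2, 51.0 and 73.3 CPM in rctrl wounds. No rIL34 wound reached the lowest rctrl wound, and rIL34 replicate 6, at 7.72 CPM, stood below the rest of its group (log2 fold change -1.59, SE 0.36, adjusted p = 0.00127). The ligand copies *wnt4.L* (-0.85) and *wnt4.S* (-1.04) and the Wnt agonist copies *rspo1.L* (-1.11) and *rspo1.S* (-1.28) were lower, whereas the receptors *fzd5.L* (1.76), *fzd10.L* (1.61), *fzd1.L* (1.53) and *fzd2.S* (1.13) were higher. In the transcription factor list of mesenchyme and position, 16 of 88 rows were higher and 7 lower, with a median of -0.08. The higher share was close to the 15.8% of all genes, and the lower share was under their 11.2%. With a filter at 5 CPM in 10 libraries the counts were 10 and 8, so the list as a whole did not lean upward. Both copies of the forkhead gene (*foxc1.L* 1.83 and *foxc1.S* 2.08) and of the homeobox gene (*msx2.L* 1.06 and *msx2.S* 1.02) were stable and higher.

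T and NK cell genes were lower. Of 50 T and NK cell rows, 14 were lower and 2 higher, and the median was -0.58. The counts were 9 and 1 without rIL34 replicate 5 and also without rctrl replicate 5, and 8 and 1 in the fit of 18 libraries. *trac.L* (chromosome 1L, 153036482 to 153124100), the constant part of the T cell receptor alpha chain, had 9.197, 10.4 and 19.6 CPM in rIL34 wounds, against 19.9, 51.7 and 91.1 CPM in rctrl wounds. All rIL34 wounds lay below all rctrl wounds (log2 fold change -2.04, SE 0.45, adjusted p = 0.001). The receptor complex genes *cd3e.L* (-1.41) and *cd3g.S* (-1.74), the T cell development gene *themis.L* (-1.21), the inhibitory receptor *ctla4.L* and the cytokine interferon-gamma *ifng.L* (-1.32) were also stable. The 2 higher rows are not specific to T cells, namely *thy1.L* (2.08, adjusted p = 0.0014), which fibroblasts express, and *gata3.L* (0.64, adjusted p = 0.0413), a factor of epidermis as well, whose call was kept in 7 of 22 refits. The summed T cell panel overlapped between the groups, at 37.4, 54.4 and 69.3 CPM in rIL34 against 53.4, 96.2 and 125.6 CPM in rctrl wounds, with 4 of 8 rows lower. B and plasma cell rows had 5 lower (18.5%, against 11.2% of all genes) and 1 higher (3.7%, against 15.8%) of 27. They had 3 and 1 without rIL34 replicate 4 or 5, 2 and 0 without rctrl replicate 6, and 3 lower and 4 higher with voom. Summed over the list they overlapped, at 1601, 2503 and 3935 CPM in rIL34 against 1665, 2204 and 2548 CPM in rctrl wounds. The B cell factor *PAX5* (-1.23, adjusted p = 0.0136) was stable.

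More chemokine and interferon rows were lower than higher. Of 44 chemokine and receptor rows, 11 were lower and 1 higher, with a median of -0.77, and the lower rows numbered 19 without rIL34 replicate 3, 7 without rIL34 replicate 6 or rctrl replicate 6, and 5 in the fit of 18 libraries. *cxcl9.S* (chromosome 1S, 70690680 to 70694282), an interferon-induced attractant of T cells, had 1.40, 5.27 and 16.9 CPM in rIL34 wounds, against 6.40, 28.2 and 72.0 CPM in rctrl wounds (log2 fold change -2.28, SE 0.65, adjusted p = 0.00877). The groups overlapped for this gene, in which the libraries of each group ranged widely. The B cell attractant *cxcl13.S* had 0.152, 0.323 and 2.26 CPM in rIL34 wounds, against 1.54, 3.02 and 8.31 CPM in rctrl wounds (log2 fold change -2.64, SE 0.80, adjusted p = 0.0135). Its groups overlapped too, and the lymphocyte receptor *cxcr6.L* (-0.96, adjusted p = 0.0029) was stable and lower. Interferon response rows were lower in 15 and higher in 1 of 73 (20.5% lower, against 11.2% of all genes, median -0.27). Their mean log2 level, relative to the rctrl mean, was above every rctrl wound in rIL34 replicate 6 (0.27). It lay inside the rctrl range of -0.30 to 0.24 in rIL34 replicates 2 (-0.16) and 5 (-0.29). The antiviral effectors *MX2* (-1.37) and *eif2ak2.L* (-0.97) and the DNA-sensing adaptor *sting1.S* (-0.98) were stable. The higher row, *irf3.S* (1.09, adjusted p = 3.51e-05), kept its call in 20 of 21 refits, and the sum of the copies did not pass (adjusted p = 0.13). In antigen presentation the interferon-induced proteasome activator genes fell (*psme1.S* -1.25, *psme1.L* -1.02 and *PSME2* -0.96) while the peptide-loading genes *tapbp.L* (1.14), *calr.L* (1.12) and *calr.S* (0.83) rose. That list had 8 higher (19.5%, against 15.8% of all genes) and 5 lower (12.2%, against 11.2%) of 41. It had 5 and 6 without rIL34 replicate 3 and 6 and 3 without rctrl replicate 3.

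Among cytokine genes, both copies of tumor necrosis factor were lower. *tnf.S* (chromosome 8S, 81721966 to 81724837) had 5.05, 9.12 and 12.8 CPM in rIL34 wounds, against 15.1, 18.7 and 28.3 CPM in rctrl wounds with no overlap (log2 fold change -1.10, SE 0.23, adjusted p = 0.00055). The L copy *tnf.L* had -0.93 (adjusted p = 0.0133), kept in 21 of 22 refits and lost only in the fit of 18 libraries, where its adjusted p was 0.0514. The death ligand gene *faslg.L* (-1.33, adjusted p = 0.00401) was stable and lower. The receptor subunits *il17rc.S* (1.25, adjusted p = 0.000654) and *il17re.S* (1.34, adjusted p = 0.0049) were stable and higher, and *IL17RA* (1.07, adjusted p = 0.0119) lost the call without rIL34 replicate 6 and in the fit of 18 libraries. Neither copy of interleukin-1 beta (*il1b.L* 0.15, adjusted p = 0.886 and *il1b.S* 0.12, adjusted p = 0.896) nor of the neutrophil attractant CXCL8 (*cxcl8.L* -1.28, adjusted p = 0.0927 and *cxcl8.S* -0.99, adjusted p = 0.126) passed. *cxcl8.L* did without rIL34 replicate 3 (adjusted p = 0.0363) and with voom (adjusted p = 0.0469). In a fit without rCSF1 replicates 2 and 5, chosen after seeing the data, *cxcl8.L* (adjusted p = 0.0114) and *cxcl8.S* (adjusted p = 0.0328) both passed. The list of inflammatory cytokines and receptors had 9 rows higher (11.2%, against 15.8% of all genes) and 6 lower (7.5%, against 11.2%) of 80. It had 9 and 10 without rIL34 replicate 3, and 5 and 8 without rIL34 replicate 6.

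The genes that the study discusses from its RNA-seq were read as 1 group with genes it followed on tissue sections. The latter were *il34*, *csf1*, *csf1r*, *mpo* and *acta2*, followed by RNA in situ hybridization, and *col1a1* and *col3a1*, for the collagens that it stained. The RNA-seq genes were picked from these data, so their direction is not independent evidence. Of 36 symbols, 33 had a tested row, and of their 56 rows 12 were higher, 9 lower and 35 not called. The 8 stable rows were *acta2.L* (2.03), *acta2.S* (1.84), *il17re.S* (1.34), *sparc.S* (1.18) and *mmp14.L* (0.65), which were higher, and *tnf.S* (-1.10), *pdgfa.L* (-0.89) and *csf1.S* (-0.50), which were lower. Of the other 13 rows, *il18rap.L* (-0.81) lost its call only without rctrl replicate 3 (adjusted p = 0.0618), and *IL17RA* and *tnf.L* as given above. The calls of *fgf9.S* (-0.92), *il17ra.S* (0.70), *ccl4.L* (-1.52), *MMP14* (0.79), *mmp24.S* (-0.96), *mmp28.L* (0.53), *pdgfc.S* (-0.88), *timp2.L* (0.71), *col1a1.S* (0.99) and *col1a1.L* (1.04) each ended when any 1 of 5 to 11 of the 12 libraries was left out, and nothing further is read from them. Rows that did not pass included the granulocyte receptor *csf3r.L* (0.46, adjusted p = 0.112), *tgfbi.L* (0.85, adjusted p = 0.246), *ccn2.L* (-0.19, adjusted p = 0.716) and the interstitial collagenases *mmp1.S* (1.13, adjusted p = 0.413) and *mmp13.S* (0.68, adjusted p = 0.486). Of these, *mmp1.S* passed in the fit of the 12 libraries alone (adjusted p = 0.0131).

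Contractile genes were higher, unevenly across the rIL34 wounds. Of 46 myofibroblast and smooth muscle rows, 16 were higher and 0 lower, with 8 higher in the fit of 18 libraries and 9 higher and 1 lower with copies summed. *acta2.L* (chromosome 7L, 6909529 to 6916681), smooth muscle actin, had 10.8, 57.4 and 172 CPM in rIL34 wounds, against 14.1, 18.6 and 28.3 CPM in rctrl wounds (log2 fold change 2.03, SE 0.49, adjusted p = 0.00235). The rIL34 wounds were split here, since replicates 1 and 6 had 154.5 and 172.4 CPM while replicates 3 and 5, at 18.7 and 10.8 CPM, lay within or below the rctrl range. Myosin light chain (*myl9.L* 1.06 and *myl9.S* 1.25), the focal adhesion gene *zyx.S*, the transcription factor *srf.S* (0.75) and *lmod1.S* (1.05) were stable. In the longer list, skeletal muscle markers had 3 higher and 0 lower of 39 rows, with a median of 0.99. They summed to 137, 243 and 497 CPM in rIL34 wounds, against 111, 129 and 214 CPM in rctrl wounds. Their mean log2 level was 1.79, 1.24 and 0.38 above the rctrl mean in rIL34 replicates 1, 2 and 6, and 0.79 above it in rctrl replicate 6. Skin smooth muscle lies around its glands, whose summed markers are given above. The part of either tissue in the contractile genes was not tested.

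Of the rows of the matrix lists 7.3 to 14.3% were higher, against 15.8% of all genes, though single genes that process or bind collagen were higher. Of 41 dermal collagen rows 3 were higher and 3 lower. The collagen I alpha 2 chain (*col1a2.L* 0.80, adjusted p = 0.076 and *col1a2.S* 0.67, adjusted p = 0.242) and collagen III (*col3a1.L* -0.16, adjusted p = 0.734 and *col3a1.S* 0.24, adjusted p = 0.671) did not pass in either copy. However, *col1a2.L* did in the fit of the 12 libraries alone (adjusted p = 0.0248), with voom (adjusted p = 0.037) and in the fit without rCSF1 replicates 2 and 5 (adjusted p = 0.015). The log2 ratio of collagen I to collagen III counts was 2.74 ± 0.34 in rIL34 and 1.92 ± 0.30 in rctrl wounds (SD, n = 6 each, difference 0.82, exact two-sided permutation p = 0.0043), and the ranges of 2.28 to 3.24 in rIL34 and 1.48 to 2.31 in rctrl wounds overlapped slightly. *pcolce.S* (chromosome 3S, 130462990 to 130484024), which speeds removal of the C-propeptide from fibrillar procollagen, had 22.9, 46.4 and 80.0 CPM in rIL34 wounds, against 7.97, 13.1 and 17.3 CPM in rctrl wounds and separate groups (log2 fold change 1.92, SE 0.28, adjusted p = 1.2e-05). *sparc.S* (chromosome 3S, 11580569 to 11600369), a collagen-binding matricellular protein, had 576, 902 and 1089 CPM in rIL34 wounds, against 247, 376 and 498 CPM in rctrl wounds, also separate (log2 fold change 1.18, SE 0.23, adjusted p = 0.000307). The L copy *sparc.L* had 0.62 (adjusted p = 0.159). It passed in the fit of the 12 libraries alone (adjusted p = 0.0366), with voom (adjusted p = 0.0422) and without rCSF1 replicates 2 and 5 (adjusted p = 0.0393). The collagen galactosyltransferase and lysyl hydroxylase genes *colgalt1.L* (0.62) and *plod3.L* (1.15) were stable, and the folding and crosslinking list had 7 higher and 1 lower of 55 rows. The hyaluronan receptor was higher in both copies (*cd44.L* 1.38 and *cd44.S* 0.72). It gave the 2 stable rows of the proteoglycan and provisional matrix list, which had 8 of 67 rows higher, and 5 without rIL34 replicates 4 or 6 or rctrl replicate 5. Metalloproteinases and their inhibitors had 5 higher and 3 lower of 35, of which *mmp14.L* (0.65) and *mmp21.L* (-1.57) were stable.

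Growth factor lists had no larger share of calls than all genes tested. Ligands and receptors of the PDGF, FGF, VEGF and EGF families had 5 higher (6.2%, against 15.8% of all genes) and 9 lower (11.1%, against 11.2%) of 81 rows. They had 8 and 9 without rctrl replicate 1. Stable among them were *pdgfa.L* (-0.89, adjusted p = 0.000345) and the receptor *fgfr3.L* (1.32, adjusted p = 0.00183). TGF-beta and BMP rows had 8 higher (9.8%) and 4 lower (4.9%) of 82, and 7 and 12 without rIL34 replicate 5. The BMP target was stable in both copies (*id2.L* 0.80 and *id2.S* 0.84). The neurotrophin gene *ntf3.S* (chromosome 3S, 8660949 to 8713969), which supports sensory neurons, was chosen after its values were seen and had 6.04, 7.14 and 15.6 CPM in rIL34 wounds, against 21.4, 26.1 and 34.0 CPM in rctrl wounds, with separate groups (log2 fold change -1.67, SE 0.19, adjusted p = 2.74e-07). In it rIL34 replicate 5 stood at 15.6 CPM, apart from the other rIL34 wounds. Red blood cell rows, which follow the blood left in a wound, ranged from 89.8 to 910.4 CPM summed in rIL34 and from 528 to 1315 CPM in rctrl wounds over 7 marker rows, 2 of them lower. The longer list had 2 of 21 rows lower (9.5%, against 11.2% of all genes), and 8 without rIL34 replicate 1.

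Ribosomal protein genes were lower as a block. Of 135 rows for the cytosolic ribosome, 73 were lower and 3 higher, with a median of -0.57, and 48 lower and 2 higher in the fit of 18 libraries. *rpl10a.S* (chromosome 2S, 58978073 to 58980740), a protein of the large subunit, had 464, 749 and 985 CPM in rIL34 wounds, against 1075, 1827 and 2134 CPM in rctrl wounds. Every rIL34 wound was below every rctrl wound (log2 fold change -1.16, SE 0.19, adjusted p = 4.12e-05). Among the higher rows was *rps13.S* (0.83, adjusted p = 0.00055). The ribosomal RNA share, which moved the other way, was 1.75 to 3.03% in rIL34 and 1.14 to 1.58% in rctrl wounds, and its part in this result was not tested.

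Nuclear genes of oxidative phosphorylation had a larger share of lower rows than all genes tested. Of 127 rows, 51 were lower (40.2%, against 11.2% of all genes). The 20 higher rows (11 with copies summed) were 15.7%, near the 15.8% of all genes. *cycs.L* (chromosome 6L, 42258635 to 42261507), cytochrome c, had 13.1, 21.2 and 30.3 CPM in rIL34 wounds, against 34.5, 51.1 and 68.2 CPM in rctrl wounds (log2 fold change -1.28, SE 0.26, adjusted p = 0.000472), with all rIL34 wounds lower. *atp5f1a.S* (chromosome 1S, 194883178 to 194895606), the alpha subunit in the catalytic head of ATP synthase, had 126, 162 and 182 CPM in rIL34 wounds, against 56.3, 72.3 and 88.3 CPM in rctrl wounds (log2 fold change 1.12, SE 0.18, adjusted p = 4.09e-05), with all rIL34 wounds higher. The lower rows also included *cox7c.L* (-0.85), *cox7c.S* (-1.24), *cox7b.L* (-1.13), *cox7b.S* (-0.91), *ndufa5.L* (-1.19) and *ndufa5.S* (-1.36). The higher rows also included *atp5f1b.L* (0.82), *atp5f1b.S* (1.03) and *ndufs1.L* (0.93). The 13 protein genes of the mitochondrial genome had 1 higher, *ND4* (0.74), and 4 lower (30.8%, against 11.2% of all genes). The lower rows numbered 1 in the fits of 12 and of 18 libraries, and 2 without rIL34 replicate 6 or rctrl replicate 5. Of the 4, 1 was stable.

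Glucose and sterol metabolism was higher in 30 and lower in 1 of 95 rows (17 and 1 without rctrl replicate 5, 15 and 0 in the fit of 18 libraries, 16 higher with copies summed). Squalene synthase *fdft1.L* (0.80, adjusted p = 0.000121), an enzyme of cholesterol synthesis, and the sterol sensor *scap.L* (0.98, adjusted p = 0.00218) were stable, as were the glycolytic enzymes *aldoc.L* (1.25, adjusted p = 0.0013) and *eno1.L* (0.85, adjusted p = 0.00341). In the chaperone and unfolded protein list 19 of 84 rows were higher (22.6%, against 15.8% of all genes) and 7 lower (8.3%, against 11.2%). The lower rows numbered 4 without rIL34 replicates 5 or 6 or rctrl replicate 2. The heat shock proteins of the cytosol *dnajb1.L* (1.44) and *hspa2.L* (1.91) and both copies of the stress sensor, *ern1.L* (0.97) and *ern1.S* (0.90), rose, and both copies of a mitochondrial chaperonin fell (*hspe1.L* -1.15 and *hspe1.S* -1.42). The endoplasmic reticulum thiol oxidoreductase *erp44.L* (chromosome 6L, 68885390 to 68910236), chosen after its values were seen, was lower, at 81.8, 89.2 and 115 CPM in rIL34 wounds, against 194, 221 and 276 CPM in rctrl wounds, without overlap (log2 fold change -1.31, SE 0.15, adjusted p = 2.91e-07).

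Whether these differences were particular to IL34 was read from the rCSF1 wounds of the same day. The comparisons of rCSF1 with rctrl and of rIL34 with rctrl share the rctrl libraries, so their likeness is no result, and the direct test of rIL34 against rCSF1 was used. In it 2272 genes were higher (8.05%) and 2638 lower (9.35%) in rIL34 than in rCSF1 wounds. Of the 7630 genes called against rctrl, 6044 were not called against rCSF1, which does not show that the cytokines acted alike. This test shares the rIL34 libraries with the test against rctrl, so genes chosen as high or low against rctrl lean the same way in it. The genes named next were chosen for their change against rctrl, so a like direction in them is not separate support. Replicates 2 and 5 of rCSF1 stand apart from the other libraries on a principal component analysis of the whole series, and 940 genes were higher and 814 lower than in rCSF1 wounds without them. Higher than in rCSF1 wounds were *krt12.6.S* by 1.85 (adjusted p = 0.00221) on the log2 scale, *scnn1b.L* by 1.62 (adjusted p = 0.000848), *nr1d1.L* by 1.45 (adjusted p = 0.00582), *egr1.S* by 1.08 (adjusted p = 0.00882), *acta2.L* by 1.67 (adjusted p = 0.0165), *pcolce.S* by 1.71 (adjusted p = 0.000345), *sparc.S* by 0.94 (adjusted p = 0.00579) and *atp6v1b1.L* by 0.92 (adjusted p = 0.0295). Without the 2 rCSF1 libraries these differences were 1.33 (adjusted p = 0.0047), 1.38 (adjusted p = 0.0128), 1.21 (adjusted p = 0.0635), 1.19 (adjusted p = 0.0255), 1.21 (adjusted p = 0.131), 1.33 (adjusted p = 0.00343), 0.66 (adjusted p = 0.0795) and 0.64 (adjusted p = 0.222), in the same order. Lower than in rCSF1 wounds were *sdc1.L* at -1.19 (adjusted p = 0.0221), *cycs.L* at -1.35 (adjusted p = 0.0011), *erp44.L* at -0.77 (adjusted p = 0.000901) and *ntf3.S* at -0.71 (adjusted p = 0.00778). Without those libraries they were, in that order, -0.16 (adjusted p = 0.796), -1.30 (adjusted p = 0.00778), -0.64 (adjusted p = 0.00987) and -0.62 (adjusted p = 0.0541). The calls of *nr1d1.L*, *acta2.L*, *sparc.S*, *atp6v1b1.L*, *sdc1.L* and *ntf3.S* were thus lost without the 2 libraries. That fit also holds fewer rCSF1 wounds, and no other pair was left out, so a weaker test and a part of these 2 libraries cannot be told apart.

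Cell cycle genes differed between the cytokines. In rIL34 against rctrl wounds, 15 of their 124 tested rows were higher (12.1%, against 15.8% of all genes) and 8 lower (6.5%, against 11.2%). The median was 0.05. In the direct test 83 rows were above the rCSF1 wounds and 1 was below, and 42 and 0 without the 2 rCSF1 libraries. In rCSF1 against rctrl wounds, with all rCSF1 libraries, 92 of these rows were lower and 7 higher (median -0.83). The calls of rIL34 against rctrl in this list depended on single libraries, and of them *RRM1* (0.80), *foxm1.S* (0.80) and *cenpe.L* (-0.68) were stable. Keratin rows were above the rCSF1 wounds in 21 and below in 3, and in 5 and 1 without those 2 libraries. The other epidermal lists did not lean this way as a whole. Epidermal differentiation had 10 rows above and 11 below (4 and 0 without those libraries). Desmosome and adherens junction rows had 6 and 9 (2 and 1), tight junction rows 4 and 5 (1 and 1). Channel, ionocyte and gland rows had 5 above and 2 below (4 and 0). Plakoglobin *jup.L* was not called against rCSF1 (-0.12, adjusted p = 0.789), and neither was *trac.L* (-0.54, adjusted p = 0.414) or *tnf.S* (-0.12, adjusted p = 0.757).

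**Figure D4:**
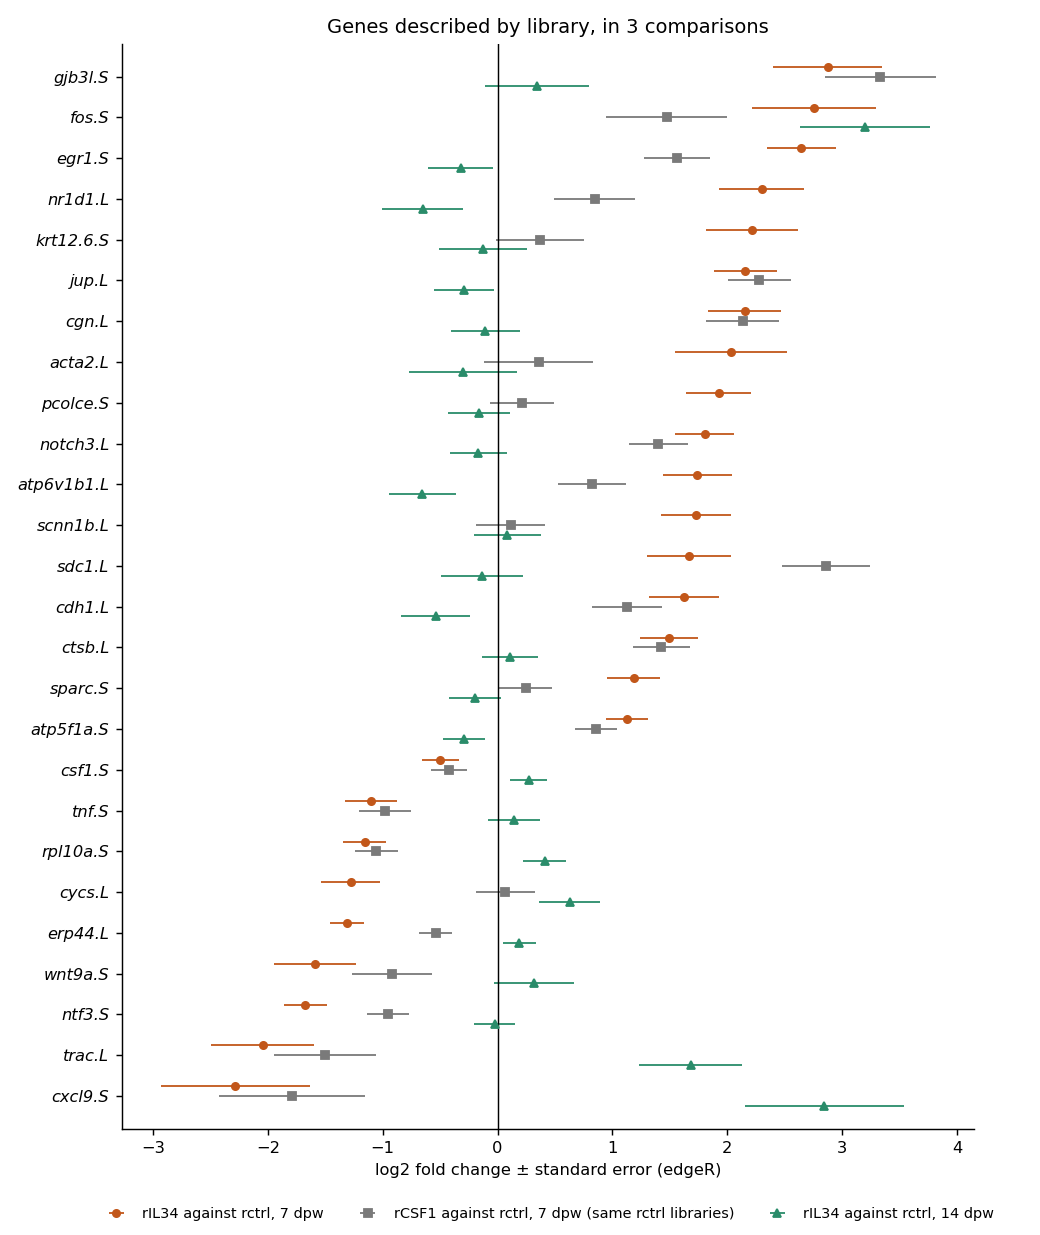
Log2 fold change with its standard error (horizontal axis) of selected genes (rows) for rIL34 against rctrl at 7 dpw, rCSF1 against rctrl at 7 dpw and rIL34 against rctrl at 14 dpw, the first and second sharing their rctrl libraries. At 7 dpw rIL34 points lie away from 0 for every gene shown, while the 14 dpw points are nearer 0 or on its other side for all of them except *fos.S*, at 3.20 (adjusted p = 0.0144).

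At the later day, 14 dpw, the test of rIL34 against rctrl called 13 genes higher (0.0461%) and 1 lower (0.00354%), counts that were not recomputed under other settings. The difference between the effect at 14 dpw and that at 7 dpw was tested directly, and it was called for 5205 genes, 2132 upward (7.55%) and 3073 downward (10.9%). The difference contains the effect at 7 dpw, so for genes called at 7 dpw its sign mostly follows from how they were chosen. Such a difference was called for 4549 of those 7630 genes. For *jup.L* the effect at 14 dpw was -0.29 (adjusted p = 0.909) and the difference -2.45 (adjusted p = 6.77e-05). For *egr1.S* these were -0.32 (adjusted p = 0.904) and -2.97 (adjusted p = 1.61e-05), for *acta2.L* -0.30 (adjusted p = 0.975) and -2.33 (adjusted p = 0.0146), and for *rpl10a.S* 0.41 (adjusted p = 0.575) and 1.57 (adjusted p = 0.000169). The T cell gene *trac.L* and the chemokine gene *cxcl9.S* lay on the other side of 0 at 14 dpw without passing the test there. The effect was 1.68 (adjusted p = 0.143) in *trac.L* and 2.85 (adjusted p = 0.123) in *cxcl9.S*. Of the 44 chemokine and receptor rows 1 was called higher at 14 dpw, and of the 50 T and NK cell rows 0 were. The differences from 7 dpw were 3.73 (adjusted p = 0.000172) for *trac.L* and 5.13 (adjusted p = 0.000373) for *cxcl9.S*. Among the T and NK cell rows, 13 of the 14 that were lower at 7 dpw had a called difference, as did 38 of the 50 higher rows for epidermal differentiation and 21 of the 41 higher immediate early rows. In *fos.S* the effect at 14 dpw was 3.20 (adjusted p = 0.0144) and the difference 0.44 (adjusted p = 0.722).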

How the data were processed

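The deposited table holds raw counts, read pairs per gene and library, which the authors made by trimming reads with fastp, aligning them to Xenopus_laevis_v10.1 with minimap2 2.29 and SAMtools 1.16.1, and counting pairs with featureCounts 2.1.1. Libraries were strand-specific, but a strand option for counting is not given in the sources used here, so overlapping and antisense genes are uncertain, as are near-identical copies. The labels name polyA RNA and also depletion of ribosomal RNA. Of 42674 rows, 417 carry no gene name and were left out, as was 1 blank line, which left 42257 rows. On 318 of these stand 122 symbols that occur more than once, and such rows were treated separately. RefSeq symbols matched 38754 rows and gave the coordinates.

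Genes with at least 0.5 CPM in 10 of the 36 libraries were tested in 1 edgeR 4.0.16 quasi-likelihood model of 6 groups with TMM scaling and Benjamini-Hochberg adjustment over the 28225 genes, called at an adjusted p under 0.05. The study tested with DESeq2, which was run here as an alternative. CPM are scaled by TMM library sizes. Every adjusted p comes from this model unless another fit is named. Single values per library were compared by exact two-sided permutation. The scripts were tested on simulated data.

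Refits changed the tool (DESeq2 1.42.0, voom with quality weights in limma 3.58.1), scaling, filter, libraries in the fit, replicate block and treatment of L and S copies, or left out each of the 12 libraries. DESeq2's missing adjusted p-values stayed missing. The genes, 44 gene lists and marker panels were chosen with earlier results of these data known, and no set test was run. Genes named are the 15 largest stable rises and falls among genes averaging 1 CPM or more, the 10 smallest p-values (5 of which are given in the text), members of the lists with small adjusted p, mostly stable, and genes the study discusses. Other tools were R 4.3.3, Python 3.11.15, pandas 2.3.3, numpy 2.4.6, SciPy 1.17.1 and matplotlib 3.10.9.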

Additional observations from a re-analysis of the deposited data

Results flagged for a closer look

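For 26 genes described by library, the collagen ratio and the ribosomal RNA share, each group of 6 was tested for a library apart from the rest (Dixon's test), in 56 groups in all, a test that chance passes in about 1 in 20 groups. It flagged 3. In *nr1d1.L* rctrl replicate 6 had 5.54 CPM, the lowest of its group. In *wnt9a.S* rIL34 replicate 6 had 7.72 CPM, the lowest of its group. In *ntf3.S* rIL34 replicate 5 had 15.6 CPM, the highest of its group and still below every rctrl library.

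The effect of rIL34 against rctrl differed between 14 and 7 dpw in 5205 genes and in 25 of the 26 genes, *fos.S* being the exception. The values that follow are the log2 fold change at 14 dpw less that at 7 dpw in edgeR, so a sign opposite to the change at 7 dpw means a smaller or turned effect. Among genes higher after rIL34 at 7 dpw they were -2.97 for *egr1.S*, -2.95 for *nr1d1.L*, -2.53 for *gjb3l.S*, -2.45 for *jup.L*, -2.39 for *atp6v1b1.L*, -2.34 for *krt12.6.S*, -2.33 for *acta2.L*, -2.26 for *cgn.L*, -2.16 for *cdh1.L*, -2.09 for *pcolce.S*, -1.97 for *notch3.L*, -1.80 for *sdc1.L*, -1.64 for *scnn1b.L*, -1.41 for *atp5f1a.S*, -1.38 for *ctsb.L* and -1.38 for *sparc.S*. Among genes lower after rIL34 at 7 dpw they were 5.13 for *cxcl9.S*, 3.73 for *trac.L*, 1.91 for *wnt9a.S*, 1.91 for *cycs.L*, 1.65 for *ntf3.S*, 1.57 for *rpl10a.S*, 1.5 for *erp44.L*, 1.24 for *tnf.S* and 0.77 for *csf1.S*. The effect at 7 dpw is subtracted in these values, so for genes chosen for their change at 7 dpw the sign is largely set by that choice.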

How the results depend on the processing

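The 7630 genes called for rIL34 against rctrl at 7 dpw became 4691 in the fit of the 18 libraries of 7 dpw and 6437 to 7658 with 1 library left out, lowest without rIL34 replicate 6. Without rCSF1 replicates 2 and 5 they became 9329. The 4910 genes called for rIL34 against rCSF1 became 1421 in the fit of 18 libraries, 2086 with voom, 1754 without rCSF1 replicates 2 and 5, a fit chosen after seeing the data, and 3639 to 6267 with 1 library left out. The 5205 genes whose effect differed between 14 and 7 dpw became 7955 with voom and 4386 to 5452 with 1 library left out. The cause of these shifts was not tested. Other settings moved the 3 counts by less than 1.5 times, and none moved the share of higher calls in the rIL34 against rctrl comparison, 58.6%, outside 49.3 to 61.1%. With 1 library left out, the difference in the log2 collagen I to III ratio was 0.72 to 0.91 and that in the ribosomal RNA share was 1.1 to 1.36 percentage points, all with an exact permutation p under 0.05.

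Same-numbered rIL34 and rctrl libraries did not deviate together (correlations of -0.075 to 0.184), and 0 of 6 correlated best with its own number. The counts thus gave no sign that the numbers pair the samples, which does not exclude a paired design. With the replicate block 7344 genes were called for rIL34 against rctrl, 4451 for rIL34 against rCSF1 and 4932 for the difference between days, and the collagen ratio and ribosomal RNA share had exact sign-flip permutation p = 0.031.

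Of 5697 refits of the 249 genes named for this comparison, 5478 left the call as it was, 207 ended it (29 genes), 12 added it (5 genes) and 0 reversed a called direction. At totals of 24605315 to 34868292 read pairs, a gene that was not called is not shown to be unchanged.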

Other observations

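In 9 further lists of skin cell types and processes, 5.5% to 19.1% of the tested rows were higher and 0 to 16.7% lower, against 15.8% and 11.2% of all genes. Complement and coagulation had 8 higher and 0 lower of 63 rows (3 higher without rIL34 replicate 4, 4 without rctrl replicate 5, 5 without rctrl replicates 4 or 6), of which clusterin *clu.L* (2.36, adjusted p = 0.00409) and the lectin ficolin *fcn1.S* (2.34, adjusted p = 0.00685) were stable. Basement membrane rows had 6 higher and 2 lower of 45, and 3 and 0 without rIL34 replicate 6, with the linker plectin *plec.S* (1.22, adjusted p = 1.13e-05) and the heparan sulfate proteoglycan perlecan *hspg2.L* (0.78, adjusted p = 0.00297) stable. The other higher rows of that list were the hemidesmosome genes *itgb4.L* (0.90), *itga6.S* (0.72) and *col17a1.S* (0.80), which anchor basal keratinocytes, and nephronectin *npnt.S* (0.93). Without rIL34 replicate 6 the 3 hemidesmosome rows lost their calls, *itgb4.L* and *col17a1.S* also without several other libraries. Integrins had 6 higher and 1 lower of 38 (3 and 2 without rIL34 replicate 4), with *itgb5.L* (1.04, adjusted p = 8.79e-05) and *itgb3.L* (1.51, adjusted p = 0.00434) among the stable rows. ADAM and ADAMTS proteases had 6 higher and 6 lower of 58 (3 and 6 without rIL34 replicate 4, 5 and 3 without rIL34 replicate 6, 3 and 7 without rctrl replicate 2), with *adam15.L* (1.17, adjusted p = 1.4e-06) and *adamts9.L* (-0.86, adjusted p = 0.00024) stable.

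Endothelial rows had 3 higher and 5 lower of 53, with 3 to 10 lower when single libraries were left out. The tight junction gene *cldn5.S* (adjusted p = 0.00421) was stable and higher, and both copies of the transcription factor ETS1, *ets1.L* (-0.68, adjusted p = 0.00595) and *ets1.S* (-0.93, adjusted p = 0.00479), were stable and lower. Neural crest derivatives, pigment cells and Schwann cells, had 9 higher and 1 lower of 47 (4 and 0 in the fit of 18 libraries), among them their shared transcription factor *sox10.L* (0.97, adjusted p = 0.00477) and the melanosome transporter *slc45a2.L* (0.91, adjusted p = 0.00317), both stable. Feedback genes of cytokine and NF-kB signaling had 12 higher and 10 lower of 90. Both copies of the NF-kB inhibitor epsilon, *nfkbie.L* (0.94, adjusted p = 5.38e-05) and *nfkbie.S* (0.86, adjusted p = 0.000655), were higher, while the inflammasome adaptor *pycard.L* (-0.92, adjusted p = 0.0109) and the kinase *ripk1.S* (-0.69, adjusted p = 0.000486) were lower. Arginine, polyamine and eicosanoid genes had 3 higher and 4 lower of 55, and the 6 mast cell rows had 1 higher and 1 lower.

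The direction of change also varied with the kind and the size of the gene, chosen after the values were seen. Of 1382 tested long non-coding RNA genes, 34 were higher and 183 lower (median log2 fold change -0.32), and of 123 small nuclear RNA genes 1 was higher and 40 lower (median -0.51), against 4348 higher and 2831 lower of 25789 protein-coding genes (median 0.01). When genes were ordered by their genomic span and cut into 10 equal bins, the median log2 fold change was 0.03 to 0.09 in bins 1 to 8, -0.08 in bin 9 and -0.22 in bin 10. In the last, genes spanning 101346 bases or more, 130 were higher and 425 lower. Their part in the lower rows of single lists was not tested.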
